A study of Mus musculus with 7 samples.

Results

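Enzymes that oxidise, reduce and conjugate small molecules were compared between epidermis that had lost Abca12 and control epidermis of mice. The genes were chosen by symbol. They are the cytochrome P450 (Cyp), glutathione S-transferase (Gst), UDP-glucuronosyltransferase (Ugt), alcohol and aldehyde dehydrogenase (Adh, Aldh), aldo-keto reductase (Akr1), sulfotransferase (Sult), flavin monooxygenase (Fmo) and carboxylesterase (Ces) families. The glutathione peroxidases (Gpx), peroxiredoxins (Prdx), superoxide dismutases (Sod), Nqo1, Hmox1, Gclc, Gclm and the thioredoxin reductases (Txnrd) were added, and Cyp51 and Ces4a were left out. The rule found 76 genes among the 7091 genes of the deposited table.

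RNA was sequenced in bulk from epidermis of telogen skin, in which hair follicles rest. KA mice (K14-CreERT;ABCA12-cKO, 4 libraries) carry conditional Abca12 alleles and CreERT, a recombinase active after tamoxifen and expressed from the keratin 14 promoter, which is active in basal keratinocytes. Controls (ABCA12-c/c, 3 libraries) carry the conditional alleles and no CreERT. Every mouse of both groups received intraperitoneal tamoxifen at 8 weeks of age, 1 mg per 40 g of body weight on each of 3 days, and skin was taken 2 weeks afterwards. The design therefore cannot tell loss of Abca12 apart from the presence of the active recombinase. KA 1, KA 2 and control 2 were males, and KA 3, KA 4, control 1 and control 3 were females. The labels do not state that each library came from a separate animal, so p-values measure only the spread between these libraries. Abca12 itself was not analysed here.

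Many of these enzymes set how long a lipid signal lasts. In the retinoid pathway, alcohol dehydrogenases and retinol dehydrogenases turn retinol into retinal. Aldh1a enzymes such as Aldh1a1 turn retinal into retinoic acid, and Cyp26 enzymes break retinoic acid down. Cytochrome P450s of the Cyp2j and Cyp4 families add oxygen to arachidonic acid and related fatty acids, giving or removing eicosanoids, the lipid mediators that also include prostaglandins and leukotrienes. Peroxiredoxins and glutathione peroxidases remove peroxides with electrons from thioredoxin and glutathione, and glutathione transferases attach glutathione to reactive molecules. Many genes of the antioxidant group are known targets of NRF2, a transcription factor encoded by Nfe2l2, and Cyp1a1 is a known target of the aryl hydrocarbon receptor.

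The table lists only genes that passed the authors' own threshold (adjusted p under 0.05), so every member had already passed that threshold and passing again is no evidence. Directions and sizes are therefore described, beside those of all listed genes. Values are normalised reads, each raw count divided by the authors' size factor of its library (0.888 to 1.25). Fold changes compare KA with control on the log2 scale and come with a standard error (SE) and an adjusted p (edgeR, quasi-likelihood F test, Benjamini-Hochberg). Listed genes held 9590718 to 12761458 reads per library, which is a part of each library and not its depth.

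Of the 6749 listed genes with enough reads to be tested, 6746 passed the threshold, 52.7% higher and 47.3% lower in KA. The share at least 2-fold higher was 20.5% and the share at least 2-fold lower was 20.8%. Their median log2 fold change was 0.36, and the 2 groups were fully apart in 93.5%. Of the 76 enzyme genes, 72 had enough reads. KA was higher in 37 and lower in 35, with a median log2 fold change of 0.44, and the groups did not overlap in 66 of 72 (91.7%). At least 2-fold differences were found upwards in 23 members (31.9%) and downwards in 25 (34.7%).

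**Figure D1:**
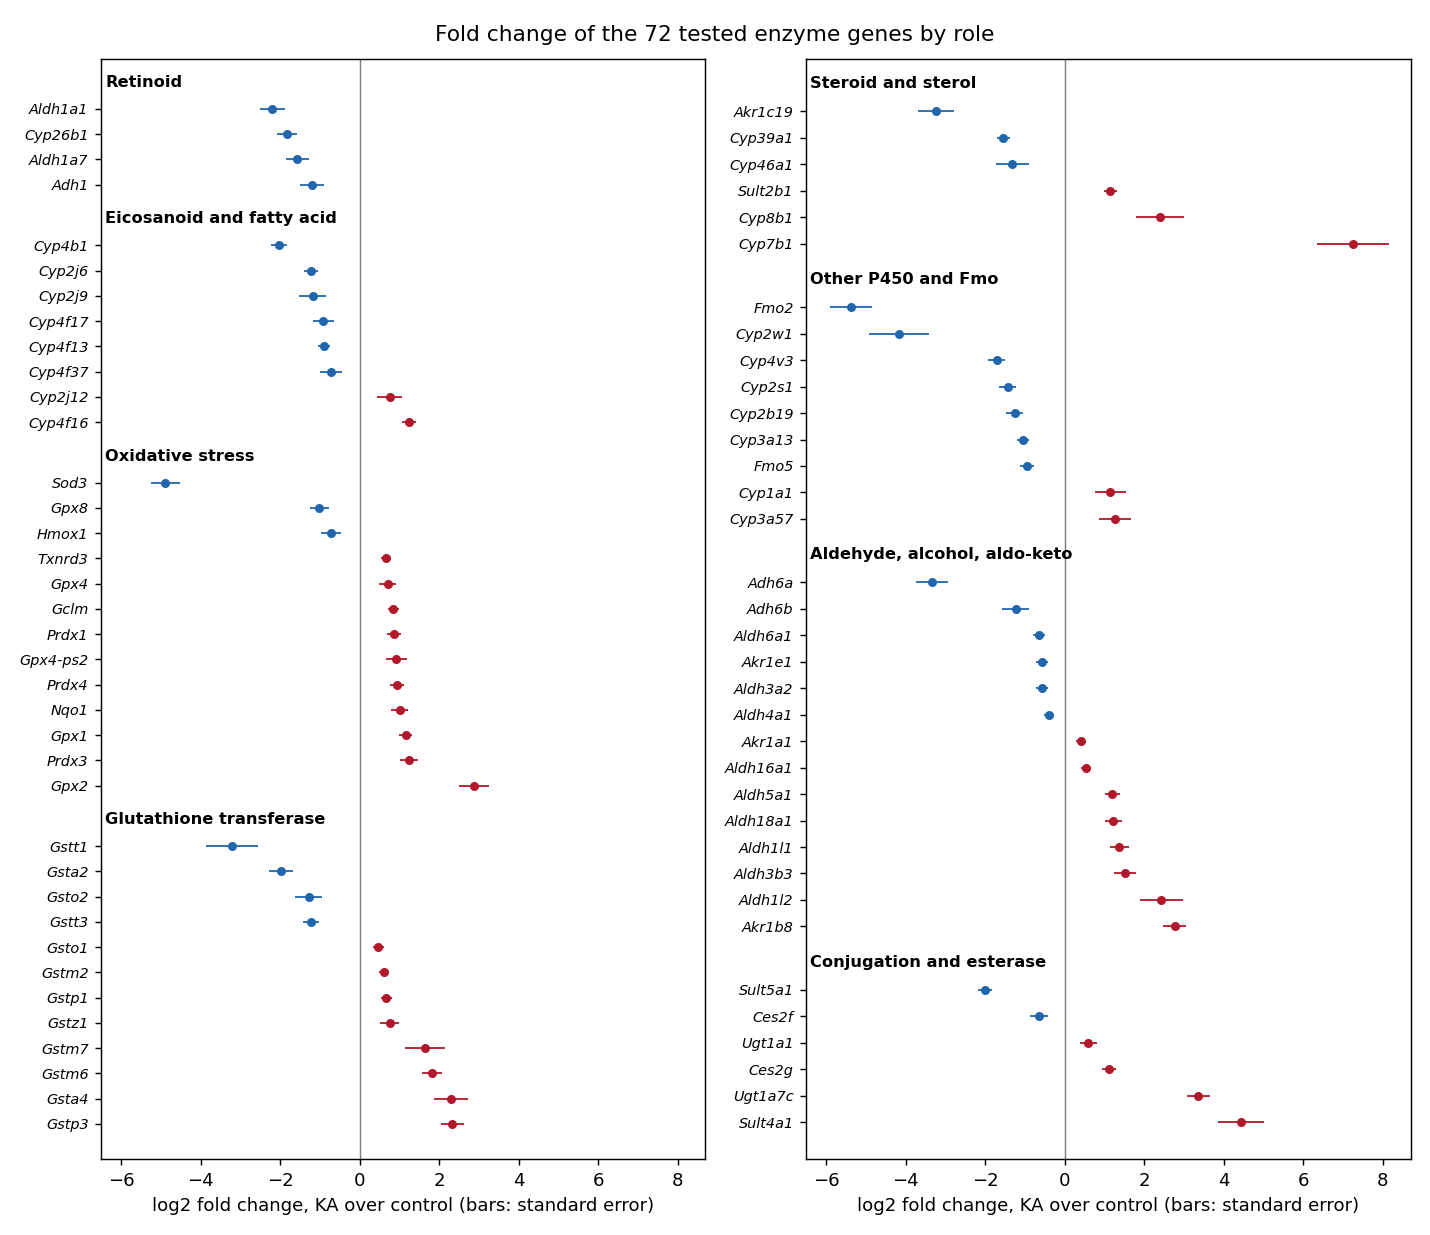
Log2 fold change, KA against control, of the 72 members with enough reads (points, with bars of 1 SE), grouped by class of enzyme. The retinoid enzymes lie below 0, 10 of the 13 genes of the oxidative stress class (with the pseudogene Gpx4-ps2) lie above 0, and the other classes hold genes on both sides.

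Markers of other cells of the skin also differed between the groups. Sebaceous gland markers (13 of 18 listed, 12 higher) summed to 70163 to 90435 normalised reads in controls and 160510 to 206084 in KA. The largest rises in reads were those of Krt79 (mean 30583 in controls, 79325 in KA) and Fabp5 (5420 and 35271), so the sum rests mostly on these genes. Hair follicle markers (7 of 12 listed, 4 higher and 2 lower of 6 tested) summed to 66299 to 76159 and 155696 to 232982, mostly through Krt17 and Krt79, which is also in the sebaceous list. Neutrophil and macrophage markers (7 of 12 listed, 5 higher and 2 lower) summed to 778 to 1092 against 12545 to 66665. The genes S100a8 and S100a9 carried that sum, and the other 5 listed markers came to 762 to 1075 against 1631 to 1968. Among these 5, the macrophage markers Cd68 (log2 fold change -0.65) and Adgre1 (-1.42) were lower. Langerhans cell markers (8 of 8, all higher) summed to 29573 to 41001 against 66225 to 101168. Skeletal muscle (1 of 10 listed, 3.79 to 11.3 against 35.3 to 55.2) and endothelium (3 of 8, 16.1 to 44.9 against 80.4 to 139.5) stayed low in both groups.

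Markers of the epidermis itself were high, as the label says. Basal keratinocyte markers (5 of 7 listed, 2 higher and 3 lower) summed to 536628 to 621148 in controls and 680506 to 776380 in KA. Suprabasal markers (8 of 10, 3 higher and 5 lower) summed to 475832 to 539929 and 353315 to 591698. Dermal fibroblast markers (3 of 12, 2 higher and 1 lower) summed to 2443 to 3430 against 4756 to 6163, and adipocyte markers (3 of 10, 3 higher) to 156 to 279 against 451 to 567. T cell markers (4 of 10, 1 higher and 3 lower) summed to 1163 to 1499.7 against 635 to 732, and melanocyte markers (2 of 8, both lower) to 328 to 551 against 247 to 335. No listed marker was at 0 in every library of a group. The part of these cells in the enzyme values was not tested, and in bulk RNA fewer cells of a type and less RNA per cell cannot be told apart.

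All 4 genes grouped by name as retinoid enzymes were lower in KA, each at least 2-fold, with a median log2 fold change of -1.70. Of all listed genes tested, 47.3% were lower and 20.8% at least 2-fold lower. Whether each of them, Aldh1a7 included, acts on retinoids was not examined. Aldh1a1, which makes retinoic acid from retinal (ENSMUSG00000053279, chromosome 19, 20492715 to 20643462, GRCm38), had 83.3, 187 and 101 normalised reads in controls 1 to 3, against 25.7, 30.4, 28.2 and 22.8 in the KA libraries 1 to 4. The KA libraries were close to each other and all below the lowest control, while the male control 2 was the highest. Its log2 fold change was -2.20 (SE 0.32, adjusted p = 0.000191), a 4.59-fold lower level. Aldh1a7, its close relative and neighbour on chromosome 19, had 226, 395 and 290.3 in controls and 59.4, 95.8, 132 and 123 in KA (log2 fold change -1.57, SE 0.28, adjusted p = 0.00066).

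Cyp26b1 works at the other end of the pathway, where it breaks retinoic acid down (ENSMUSG00000063415, chromosome 6, 84571414 to 84593908). It had 542, 434 and 762 normalised reads in controls and 97.9, 177, 190.1 and 191 in KA. KA 1 was the lowest library, the other KA libraries lay close together, and all were below every control. The log2 fold change was -1.82 (SE 0.26, adjusted p = 0.000162). Adh1, an alcohol dehydrogenase that accepts retinol, had 483, 1211 and 743 in controls and 275, 309, 502 and 328 in KA. The groups overlapped, since KA 3 lay above control 1, and the log2 fold change was -1.20 (SE 0.30, adjusted p = 0.00461). Synthesis and breakdown genes of retinoic acid were therefore lower together among the members.

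The other retinoid genes of a list of 34 moved mostly the opposite way. Of the 19 listed, 18 had enough reads, and KA was higher in 14 and lower in 4, with a median log2 fold change of 0.92. All listed genes tested were 52.7% higher, with a median of 0.36. Rbp2, a retinol carrier, went from 303, 275 and 285 normalised reads to 2272, 1648, 1916 and 1549 (log2 fold change 2.68). Lrat, which stores retinol as esters, had 0, 1.03 and 0.802 in controls and 70.2, 47.3, 27.2 and 17.6 in KA. Retinol dehydrogenases Rdh1, Rdh10, Rdh11 and Rdh12 and the retinol-oxidising Dhrs9 (log2 fold change 2.55) were also higher. On the lower side were Bco1, which cleaves beta-carotene into retinal (-2.34), Rdh16, Dhrs3, which returns retinal to retinol (-0.46), and the receptor Rarg (-0.25).

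**Figure D2:**
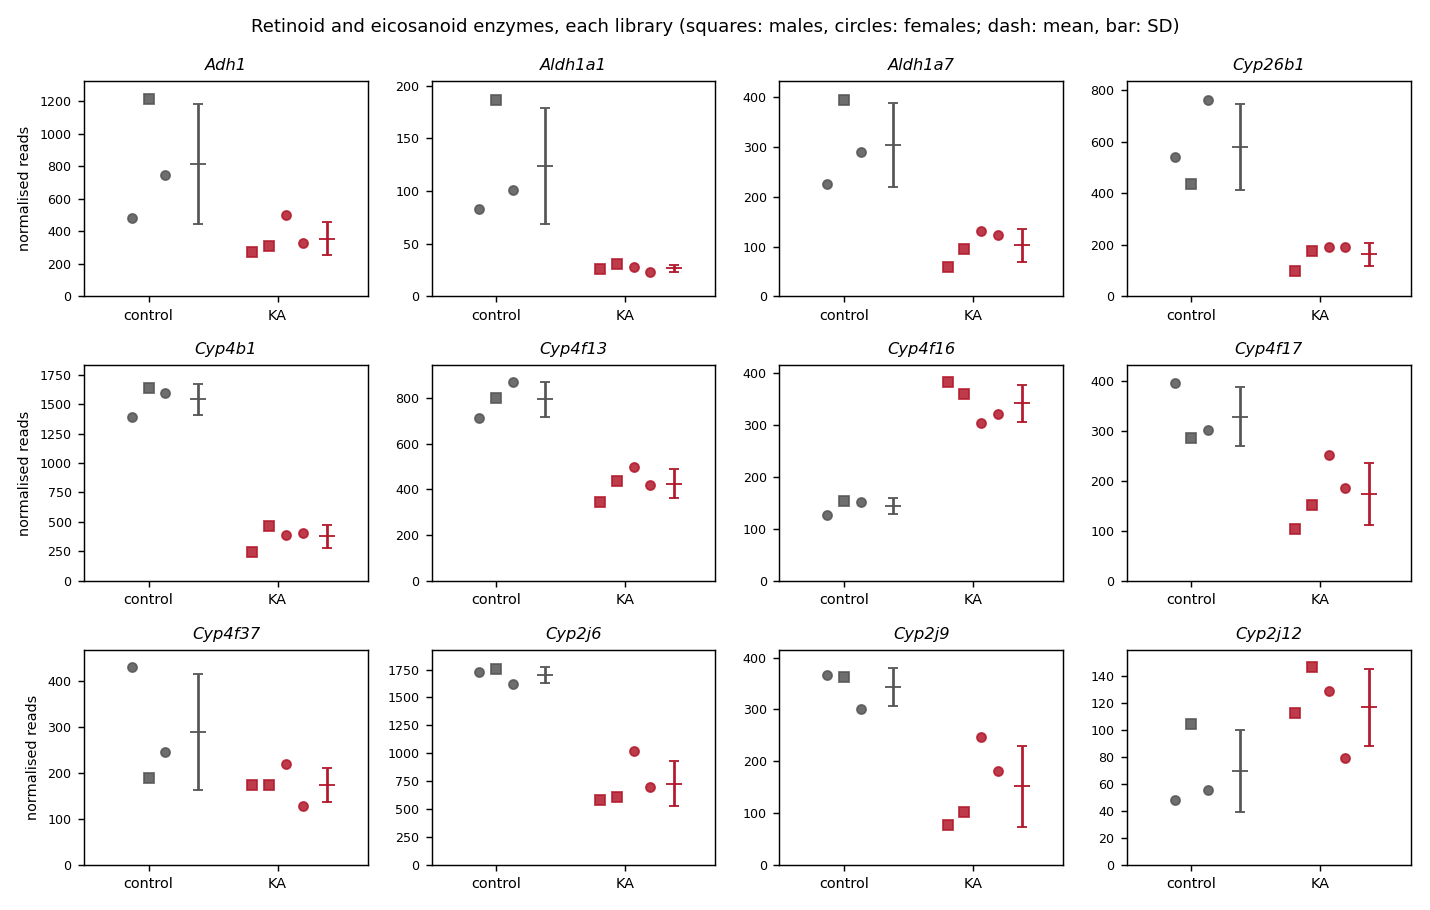
Normalised reads of the 4 retinoid and 8 eicosanoid enzymes in each library (linear axes from 0, grey controls, red KA, squares males, circles females, dash and bar the mean and SD). KA points lie below all controls for Aldh1a1, Aldh1a7, Cyp26b1, Cyp4b1, Cyp4f13, Cyp4f17, Cyp2j6 and Cyp2j9, above them for Cyp4f16, and overlap them for Adh1, Cyp4f37 and Cyp2j12.

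Of the 8 P450s grouped here as eicosanoid enzymes, 6 were lower and 2 higher in KA, with a median log2 fold change of -0.91. The share lower was 75.0%, against 47.3% of all listed genes tested. Cyp4b1, which hydroxylates fatty acids at the end of the chain (ENSMUSG00000028713, chromosome 4, 115624725 to 115647723), had 1392, 1638 and 1594 normalised reads in controls and 240.4, 468, 387 and 409 in KA. Every KA library lay below every control by a wide margin. This was the largest fall of the class, 4.10-fold (log2 fold change -2.04, SE 0.20, adjusted p = 2.17e-05).

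The Cyp2j family, which includes epoxygenases of arachidonic acid, split. Cyp2j6 (ENSMUSG00000052914, chromosome 4, 96516138 to 96553661) had 1726, 1760 and 1618 normalised reads in controls and 584, 605, 1019 and 699.7 in KA (log2 fold change -1.23, SE 0.18, adjusted p = 0.000235). Its neighbour Cyp2j9 had 366, 363 and 301 in controls and 76.2, 103, 248 and 181 in KA (log2 fold change -1.18, SE 0.34, adjusted p = 0.00832). Both were lowest in the male KA libraries and highest in KA 3. Cyp2j12 lies in the same cluster and was higher, with 48.3, 104 and 55.3 in controls and 113, 146, 128 and 78.9 in KA (log2 fold change 0.76, SE 0.32, adjusted p = 0.0375). Its groups overlapped, and its call was lost without control 1, control 3, KA 1, KA 2 or KA 3, with adjusted p from 0.0514 to 0.142.

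Cyp4f enzymes hydroxylate leukotriene B4 and long fatty acids, and 4 of them lie within one cluster of chromosome 17 (32506462 to 32947402). Cyp4f13 had 714, 799 and 869 normalised reads in controls and 345, 436, 498 and 419 in KA. Cyp4f17 had 396, 286 and 302 against 104, 152, 252 and 186. Both sets of KA values lay wholly below the controls, with log2 fold changes of -0.90 and -0.92. Cyp4f37 was also lower (432, 189.7 and 246 against 174, 175, 220.4 and 129, log2 fold change -0.73, adjusted p = 0.026), but its groups overlapped and the call was lost without control 1 (adjusted p = 0.226) or KA 4 (adjusted p = 0.0651).

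Cyp4f16 lies between them in the cluster and was higher (ENSMUSG00000048440). It had 126, 154 and 152 normalised reads in controls and 383, 359, 305 and 321 in KA, a 2.37-fold higher level (log2 fold change 1.25, SE 0.17, adjusted p = 0.000144). Every KA value lay well above every control. In its longest transcript 26.5% of 50-base words are shared with other genes, and 21.7% in Cyp4f37, so reads of these relatives may have been counted for each other.

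Together, retinoid and eicosanoid enzymes were lower in 10 of 12 cases and higher in 2, with 7 at least 2-fold lower (58.3%) and 1 at least 2-fold higher. Of all listed genes tested, 47.3% were lower and 20.8% at least 2-fold lower. The median log2 fold change of the retinoid and eicosanoid group was -1.19, against 0.36 for all listed genes. A fall of this size was not particular to the group. The other P450s and flavin monooxygenases, described below, had a median of -1.26, with 77.8% lower and 66.7% at least 2-fold lower. Taken by KA library, the median of the retinoid and eicosanoid group lay at -1.59, -1.39, -0.63 and -1.14 in KA 1 to 4, below 0 in each. The number higher fell to 1 without control 1, control 3, KA 1, KA 2 or KA 3, through the loss of Cyp2j12, and the number at least 2-fold higher rose to 2 without control 2.

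Around these P450s, 24 of 37 listed genes of prostaglandin and lipoxygenase metabolism were evenly split, 12 higher and 12 lower, with a median log2 fold change of -0.02. Pla2g4e, a cytosolic phospholipase A2 that acts on membrane lipids, went from 8.52, 21.6 and 12.8 normalised reads to 2642, 1509, 1192 and 1771 (log2 fold change 6.96). Alox8, a lipoxygenase, was also higher (3.12). Alox12e, the epidermal lipoxygenase, went from 26698, 22695 and 31768 to 7570, 13783, 19104 and 16033 (-0.94). Hpgds, a prostaglandin D synthase, and Ptger4, a receptor for prostaglandin E2, had log2 fold changes of -1.42 and -1.73.

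Enzymes against oxidative stress went mostly the other way from the retinoid and eicosanoid group. Of 13 members, 10 were higher and 3 lower in KA, with 4 at least 2-fold higher (30.8%) and 2 at least 2-fold lower, and a median log2 fold change of 0.87. The share higher was 76.9%, against 52.7% of all listed genes tested, of which 20.5% were at least 2-fold higher. Gclc was not among the listed genes, and Sod3 and Txnrd3 were the only listed genes of their families. The counts therefore describe listed genes and not whole families. The class median by KA library was 0.96, 0.98, 0.74 and 0.67 in KA 1 to 4. The groups did not overlap in 11 of the 13 (84.6%), against 93.5% of all listed genes tested.

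Gpx1, the general glutathione peroxidase of the cytosol, had the highest level per kilobase of transcript among the members (ENSMUSG00000063856, chromosome 9, 108338903 to 108340343). It went from 5579, 7169 and 7291 normalised reads in controls to 18651, 13884, 12558 and 14496 in KA. The log2 fold change was 1.16 (SE 0.17, adjusted p = 0.000203), or 2.23-fold, from 4635 ± 663 (SD, n = 3) to 10338 ± 1825 (SD, n = 4) normalised reads per kilobase. Gpx2, a peroxidase known from the lining of the gut, started far lower (ENSMUSG00000042808, chromosome 12, 76792333 to 76795554). It had 15.1, 28.9 and 46.5 normalised reads in controls and 230.5, 267, 269 and 132 in KA, a 7.34-fold rise (log2 fold change 2.88, SE 0.38, adjusted p = 0.000124). It was the largest rise of the class, and each KA library lay well above the highest control.

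Gpx4 reduces peroxides of membrane lipids. It had 2336, 3663 and 3526 normalised reads in controls and 5089, 6661, 5190 and 3775 in KA (log2 fold change 0.71, SE 0.21, adjusted p = 0.00873). Gpx4-ps2, a copy annotated as a pseudogene of Gpx4, moved with it (log2 fold change 0.92, SE 0.27, adjusted p = 0.00821). The copy shares 83.6% of its 50-base words with other genes and Gpx4 61.7%, so both values are uncertain. Although a pseudogene, Gpx4-ps2 is counted among the 13 members of the class, its 10 higher genes and its median. Gpx8, a peroxidase of the endoplasmic reticulum, went down from 202, 202 and 269 to 72.2, 124, 138 and 110.0 (log2 fold change -1.02, SE 0.24, adjusted p = 0.00281).

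Peroxiredoxins of 3 cell compartments rose together. Prdx1, in the cytosol (ENSMUSG00000028691, chromosome 4, 116685544 to 116700822), went from 4769, 7105 and 6742 normalised reads to 13849, 11748, 10390 and 9386 (log2 fold change 0.87, SE 0.18, adjusted p = 0.00143). Prdx3, in mitochondria, went from 208, 236 and 168 to 673, 493, 357 and 408 (log2 fold change 1.24, SE 0.23, adjusted p = 0.000747). Prdx4, in the endoplasmic reticulum, went from 178, 207 and 256 to 442, 447, 331 and 424 (log2 fold change 0.94, SE 0.18, adjusted p = 0.000964). No KA value of these genes fell among the controls, as in 93.5% of all listed genes tested.

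Glutathione synthesis and quinone reduction were represented by Gclm and Nqo1. Gclm, the modifier subunit of the enzyme that starts glutathione synthesis (ENSMUSG00000028124, chromosome 3, 122245557 to 122270732), had 407, 510.3 and 415 normalised reads in controls and 862, 816, 730.1 and 776 in KA (log2 fold change 0.84, SE 0.13, adjusted p = 0.000338). Nqo1, which reduces quinones, had 98.5, 148 and 102 in controls and 237, 226, 202 and 269 in KA (log2 fold change 1.01, SE 0.21, adjusted p = 0.0015). Txnrd3, a thioredoxin and glutathione reductase, had 548, 674 and 675 in controls and 911, 1033, 1048 and 999.8 in KA (log2 fold change 0.66, SE 0.13, adjusted p = 0.00101). All 3 had KA values above every control, although the groups did not overlap in 93.5% of all listed genes tested.

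Promoters of the members were read for the core of the antioxidant response element, the site that NRF2 binds, written TGACNNNGC on one strand and GCNNNGTCA on the other. Windows run from 250 bases before to 50 bases after the annotated start (RefSeq, GRCm38.p6) and were found for 66 of the 76 members. The core was present in 12.4% of all 32851 promoter windows and in 7 of the 80 windows of the members (8.75%). It was found in 2 of 10 oxidative stress enzymes with a window, Prdx1 and Gclm, and in 1 of 11 glutathione transferases, Gstm7. Adh6a, Akr1c19, Cyp2j6 and Cyp8b1 held it too, and 3 of these 4 were lower in KA. The 2 windows of the oxidative stress enzymes are shown because both genes are among those that rose, with the core in capitals as read on the gene's strand, at chr4:116685349-116685648 (plus strand) and chr3:122245307-122245606 (plus strand).
Prdx1: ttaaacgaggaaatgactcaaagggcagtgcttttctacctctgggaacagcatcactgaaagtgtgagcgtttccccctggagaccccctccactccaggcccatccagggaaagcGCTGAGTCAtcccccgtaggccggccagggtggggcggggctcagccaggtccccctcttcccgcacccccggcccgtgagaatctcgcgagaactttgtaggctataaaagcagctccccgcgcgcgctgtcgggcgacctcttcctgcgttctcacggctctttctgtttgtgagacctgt
Gclm: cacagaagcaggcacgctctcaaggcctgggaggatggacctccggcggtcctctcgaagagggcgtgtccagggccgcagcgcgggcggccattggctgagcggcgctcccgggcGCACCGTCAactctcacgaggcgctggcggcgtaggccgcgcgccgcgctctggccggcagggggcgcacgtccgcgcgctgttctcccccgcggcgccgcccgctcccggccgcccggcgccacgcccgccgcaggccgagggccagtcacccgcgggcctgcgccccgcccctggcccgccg
In Prdx1 the first base of the core lies 133 bases before the start, and it overlaps a match to the AP-1 site, TGANTCA, which 7.81% of all windows hold. In Gclm it lies 134 bases before the start with no such overlap. A match is a description of these letters and not a binding site.

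The largest fall of the class was Sod3, the secreted superoxide dismutase (ENSMUSG00000072941, chromosome 5, 52363791 to 52371418). It had 373, 244 and 418 normalised reads in controls and 6.92, 5.63, 12.5 and 20.8 in KA. All KA libraries lay far below the lowest control. The fall was 29.7-fold (log2 fold change -4.89, SE 0.37, adjusted p = 5.93e-06). Hmox1, which breaks down heme and is widely used as a sign of oxidative stress, was lower (log2 fold change -0.71, SE 0.25, adjusted p = 0.0179). Its values were 350.3, 302 and 604 in controls and 327, 205, 227 and 264 in KA, so the groups overlapped, and the call was lost without control 3 (log2 fold change -0.35, adjusted p = 0.152). Without KA 1 or without control 3, 1 member of the class was at least 2-fold lower.

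**Figure D3:**
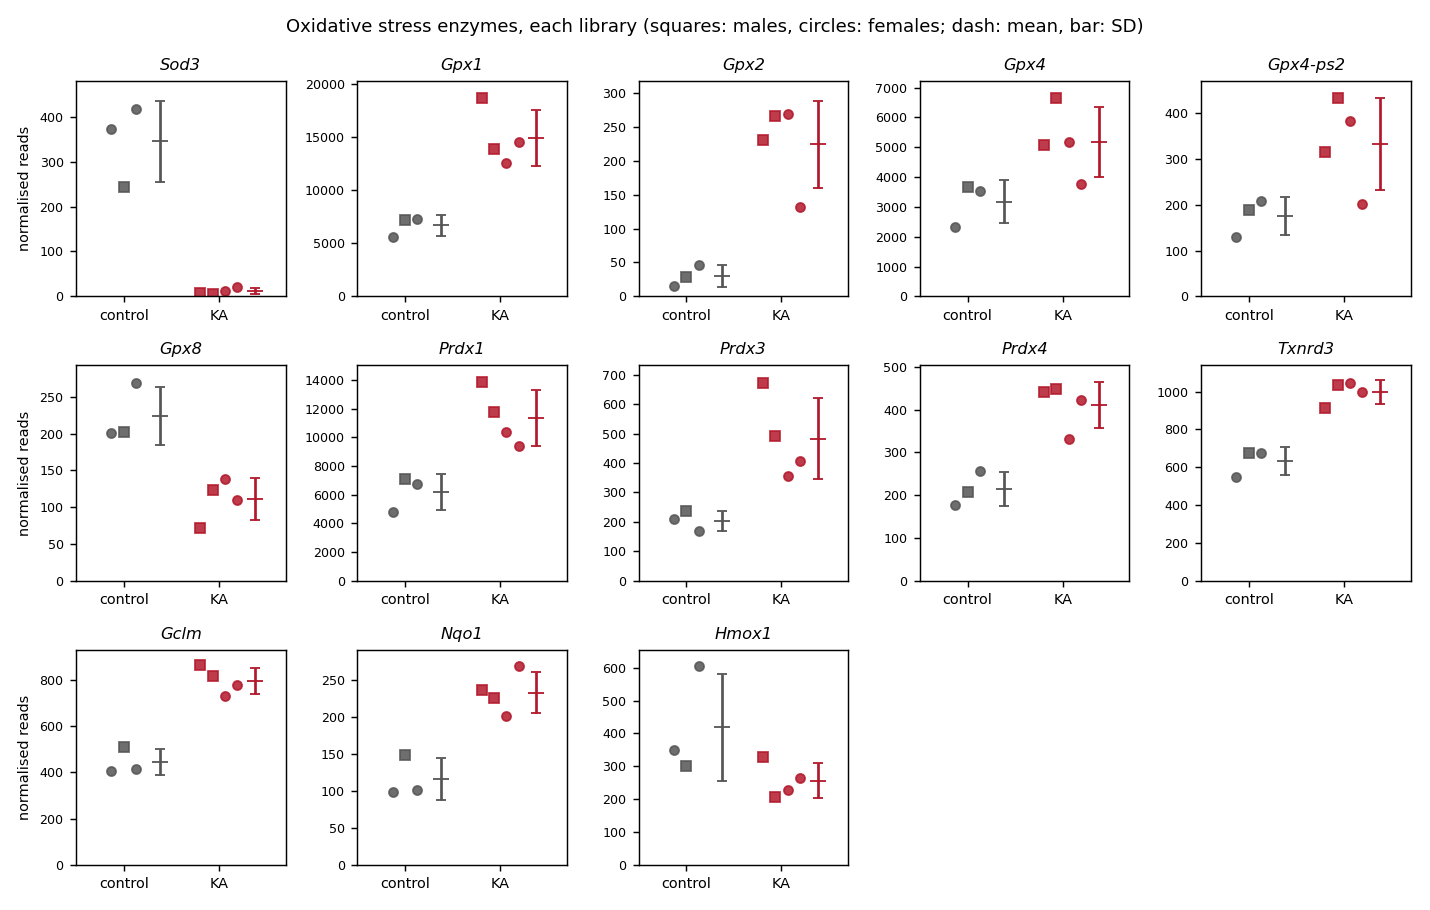
Normalised reads of oxidative stress enzymes in each library (linear axes from 0, grey controls, red KA, squares males, circles females, dash and bar the mean and SD). The KA points of Sod3 lie at 5.63 to 20.8 against 244 to 418 in controls, those of Gpx1, Gpx2 and the peroxiredoxins lie above all controls, and those of Hmox1 overlap the controls.

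Listed NRF2 targets outside the members went mostly the same way as the antioxidant enzymes. Of a list of 23, 14 were listed, 11 higher and 3 lower, with a median log2 fold change of 0.82. All listed genes tested were 52.7% higher, with a median of 0.36. The rest of the 23 were not among the listed genes and are left out of these counts. Srxn1, which repairs overoxidised peroxiredoxins, went from 140, 173 and 121 normalised reads to 759, 594, 489 and 478 (log2 fold change 2.00). Slc7a11, the cystine importer that feeds glutathione synthesis, had 3.79, 1.03 and 2.41 in controls and 822, 317, 204 and 642 in KA. Txn1, thioredoxin itself, rose by a log2 fold change of 1.29, and Me1, Blvrb and Ephx1 were lower. Nfe2l2 had a log2 fold change of 0.66, while its partners Maff and Mafk had -0.69 and -1.10.

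Other genes of glutathione and hydrogen peroxide handling were mixed. Of a list of 21, 13 were listed, 8 higher and 5 lower, with a median log2 fold change of 0.46. Glrx, a glutaredoxin, had a log2 fold change of 2.35 and the microsomal glutathione transferase Mgst2 one of 2.23. Txnip, which binds and inhibits thioredoxin, went from 34107, 50386 and 53657 normalised reads to 7628, 12969, 18711 and 16833 (-1.71). Catalase (Cat, -0.55) and Ggt5, which cleaves glutathione conjugates (-1.91), were lower too.

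Among 12 glutathione transferases, 8 were higher and 4 lower in KA, 4 at least 2-fold in each direction, with a median log2 fold change of 0.64. The share higher was 66.7%, against 52.7% of all listed genes tested. At least 2-fold differences made up 33.3% in each direction, against 20.5% upwards and 20.8% downwards. Gstp3, of the pi family (ENSMUSG00000058216, chromosome 19, 4057477 to 4059446), had 42.6, 97.9 and 104 normalised reads in controls and 468, 459.7, 374 and 339 in KA, a 5.01-fold rise (log2 fold change 2.33, SE 0.29, adjusted p = 8.7e-05). Its neighbour Gstp1 had 877, 1041 and 1085 against 1777, 1731, 1401 and 1440 (log2 fold change 0.66, SE 0.14, adjusted p = 0.00144). The groups were apart in both genes, although 62.3% of the 50-base words of Gstp1 are shared with other genes.

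Alpha family genes split within one cluster of chromosome 9. Gsta4, which conjugates 4-hydroxynonenal, a product of lipid peroxidation (ENSMUSG00000032348, 78182774 to 78209349), had 37.9, 105 and 40.1 normalised reads in controls and 393, 286, 149 and 362 in KA. The male control 2 stood highest among controls and still lay below KA 3, the lowest KA library. The rise was 4.91-fold (log2 fold change 2.30, SE 0.44, adjusted p = 0.00106), and 7.61-fold without control 2. Gsta2 (ENSMUSG00000057933, 78331018 to 78355788) went from 459, 544 and 546 to 82.1, 101, 229 and 112, a 3.94-fold fall (log2 fold change -1.98, SE 0.30, adjusted p = 0.000311). Its longest transcript shares 64.2% of its 50-base words with other genes.

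All 3 mu family genes were higher. Gstm6 went from 53.0, 48.5 and 57.7 normalised reads to 168, 139, 252 and 198 (log2 fold change 1.83, SE 0.25, adjusted p = 0.000141). Gstm2, at a higher level, went from 843, 970.1 and 1046 to 1316, 1435, 1654 and 1426 (log2 fold change 0.61), and Gstm7 from 2.84, 5.15 and 9.62 to 16.8, 11.3, 28.2 and 19.7 (log2 fold change 1.64). Both theta family genes were lower. Gstt3 had 639, 601 and 634 in controls and 180.0, 235, 342 and 309 in KA (log2 fold change -1.23), and Gstt1 23.7, 28.9 and 30.5 against 0, 1.13, 2.09 and 8.31 (log2 fold change -3.21, and -4.57 without KA 4).

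The omega pair on chromosome 19 was divided. Gsto1, which can reduce dehydroascorbate, had 1028, 1452 and 1324 normalised reads in controls and 1921, 1814, 1640 and 1618 in KA (log2 fold change 0.46, SE 0.14, adjusted p = 0.00977). With size factors by relative log expression (RLE), computed from the listed genes alone, this call was lost (log2 fold change 0.29, adjusted p = 0.0511). Gsto2 was lower, with 32.2, 36.1 and 33.7 against 14.8, 18.0, 14.6 and 8.31 (log2 fold change -1.28, adjusted p = 0.00548). Gstz1, which works in tyrosine breakdown, was higher (log2 fold change 0.75, adjusted p = 0.0123), with overlapping groups and a call lost without control 1 (adjusted p = 0.0534).

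Enzymes acting on sterols and steroids held the largest rise among the members. Cyp7b1, which hydroxylates oxysterols (ENSMUSG00000039519, chromosome 3, 18071950 to 18243338), had 0, 2.06 and 4.01 normalised reads in controls, or 0, 2 and 5 raw reads. In KA it had 734, 289.6, 148 and 198. The gene was thus near the limit of counting in controls and clearly counted in all KA libraries, most in KA 1. The log2 fold change was 7.25 (SE 0.90, adjusted p = 0.000183). As a ratio this is 153-fold, 307-fold without control 3 and 94.3-fold without KA 1, so its size rests on a few control reads.

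Sult2b1 makes cholesterol sulfate, a lipid of the upper epidermis, and had the highest mean of normalised reads in this class (ENSMUSG00000003271, chromosome 7, 45729983 to 45784669). It went from 1271, 1499 and 1320 normalised reads to 3639, 2669, 3313 and 2496, a 2.22-fold rise (log2 fold change 1.15, SE 0.15, adjusted p = 0.000122). Cyp8b1, a sterol hydroxylase of bile acid synthesis, had 4.73, 9.28 and 5.61 in controls and 74.2, 23.7, 21.9 and 18.7 in KA (log2 fold change 2.41, SE 0.60, adjusted p = 0.00393). KA 1 stood apart there, and without it the log2 fold change was 1.71, a 3.27-fold rise.

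Falls in this class included Cyp39a1, which hydroxylates 24-hydroxycholesterol, and Cyp46a1, which makes 24-hydroxycholesterol. Cyp39a1 went from 1092, 1107 and 1031 normalised reads to 281, 363, 469 and 363 (log2 fold change -1.54, SE 0.16, adjusted p = 3.43e-05). Cyp46a1 went from 44.5, 41.2 and 42.5 to 11.9, 18.0, 30.3 and 8.31 (log2 fold change -1.32, SE 0.41, adjusted p = 0.0107). Akr1c19, an aldo-keto reductase of the family that acts on steroids, went from 104, 40.2 and 81.0 to 3.96, 6.76, 8.36 and 12.5 (log2 fold change -3.24, SE 0.44, adjusted p = 0.000139). In all 3 the KA values lay below every control, where 93.5% of all listed genes tested had groups that did not overlap.

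Steroid genes with too few reads for the fit are given as values. Cyp11a1, which starts steroid synthesis from cholesterol, was at 0 in the 3 controls and had 5.94, 4.51, 4.18 and 2.08 normalised reads in KA, at least 1.50-fold higher than the floor of 3 counts per library. Akr1d1, a steroid reductase, was at 0 in the controls and had 0, 1.13, 14.6 and 3.11 in KA, most of it in KA 3 (14 raw reads), so no fold is given. Akr1c14 had 18.0, 8.25 and 12.8 in controls and 0.989, 5.63, 1.04 and 0 in KA. Of the 6 tested genes of the class, 3 were higher and 3 lower, each at least 2-fold, with a median log2 fold change of -0.08.

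Other P450s and flavin monooxygenases were mostly lower. Of 9 members, 7 were lower and 2 higher, with 6 at least 2-fold lower and 2 at least 2-fold higher, and a median log2 fold change of -1.26. The shares lower and at least 2-fold lower were 77.8% and 66.7%, against 47.3% and 20.8% of all listed genes tested. The groups overlapped in none of the 9, against no overlap in 93.5% of all listed genes tested. Fmo2, a flavin monooxygenase (ENSMUSG00000040170, chromosome 1, 162874317 to 162898726), had 132, 87.6 and 90.6 normalised reads in controls and 0.989, 4.51, 0 and 4.15 in KA. It was the largest fall among the members tested (log2 fold change -5.38, SE 0.53, adjusted p = 2.4e-05), a 41.5-fold lower level. Cyp2w1, on chromosome 5 (139352617 to 139357033), had 608, 323 and 211 in controls and 0, 13.5, 46 and 24.9 in KA. The log2 fold change was -4.17 (SE 0.75, adjusted p = 0.00119), and -4.89 without KA 3.

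Cyp2b19, an epoxygenase of arachidonic acid known from keratinocytes, was grouped by its family name with these P450s (ENSMUSG00000066704, chromosome 7, 26757142 to 26772630). It went from 2255, 1802 and 1563 normalised reads to 579.7, 763, 1128 and 654 (log2 fold change -1.26, SE 0.22, adjusted p = 0.000621). Cyp2s1, which acts on retinoic acid in epithelia, went from 708, 531 and 549 to 138, 221, 236 and 286 (log2 fold change -1.44, SE 0.22, adjusted p = 0.00028). Both moved as most of the retinoid and eicosanoid group did, and also as 7 of the 9 members of their own class did. Whether direction goes with substrate was not tested. Cyp4v3, a fatty acid hydroxylase, was also lower (log2 fold change -1.71, SE 0.21, adjusted p = 8.73e-05), as were Cyp3a13 (-1.05) and Fmo5 (-0.95).

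Cyp1a1 and Cyp3a57 were the 2 of these genes that were higher. Cyp1a1, the P450 induced through the aryl hydrocarbon receptor (ENSMUSG00000032315, chromosome 9, 57687928 to 57703824), had 159, 285 and 77.8 normalised reads in controls and 437, 501, 288 and 307 in KA. Controls ranged widely, and the highest control, the male, lay just under the lowest KA library. The log2 fold change was 1.15 (SE 0.39, adjusted p = 0.0166), and the call was lost without control 1 (log2 fold change 1.09, adjusted p = 0.0573). Cyp3a57 had 37.9, 123 and 34.5 in controls and 165, 162, 149 and 139 in KA (log2 fold change 1.26, SE 0.40, adjusted p = 0.013), with 2.09 without control 2 and the call lost without control 1 (adjusted p = 0.0515).

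The window before Cyp1a1 is shown because its gene is the known readout of the aryl hydrocarbon receptor. The RefSeq start lies inside the gene span given above. The window holds the core of the xenobiotic response element, which that receptor binds. It is written GCGTG and was searched on both strands, where the other strand reads CACGC. The match is in capitals, at chr9:57697363-57697662 (plus strand).
Cyp1a1: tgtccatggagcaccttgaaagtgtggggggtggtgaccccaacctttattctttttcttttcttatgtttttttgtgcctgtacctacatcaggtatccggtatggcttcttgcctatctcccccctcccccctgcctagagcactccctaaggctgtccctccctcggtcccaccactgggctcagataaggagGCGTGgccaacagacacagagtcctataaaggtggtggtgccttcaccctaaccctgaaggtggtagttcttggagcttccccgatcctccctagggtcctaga
This core is short and was present in 32.4% of all promoter windows and in 26 of the 80 member windows (32.5%). Of a list of 10 genes around this receptor and the P450s, 6 were listed, 4 higher and 2 lower, with a median log2 fold change of 0.39. The higher genes were Tiparp, a target of the receptor (0.74), Por (0.43), Cyb5a (0.34) and Nfe2l2 (0.66), the NRF2 gene given above. The lower genes were Ahr, the receptor itself (-0.43), and Arnt (-0.31). The count of higher genes is therefore not a count of targets of the receptor.

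Among 14 aldehyde and alcohol dehydrogenases and aldo-keto reductases outside the retinoid and steroid classes, 8 were higher and 6 lower, with 6 at least 2-fold higher and 2 at least 2-fold lower. The 2-fold shares were 42.9% upwards and 14.3% downwards, against 20.5% and 20.8% of all listed genes tested. The groups did not overlap in any of the 14, against no overlap in 93.5% of all listed genes tested, and the median log2 fold change was 0.48. Adh6a (ENSMUSG00000053054, chromosome 3, 138313286 to 138331134) went from 311, 391 and 286 normalised reads to 12.9, 18.0, 43.9 and 55.0, a 10.1-fold fall (log2 fold change -3.34, SE 0.40, adjusted p = 8.78e-05). Its neighbour Adh6b was also lower, with 136, 139 and 147 against 28.7, 56.3, 103 and 50.9 (log2 fold change -1.23, SE 0.35, adjusted p = 0.00677). With Adh1, all 3 listed genes of the Adh cluster were lower in KA.

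Akr1b8, an aldo-keto reductase that reduces aldehydes, had the largest rise of this class (ENSMUSG00000029762, chromosome 6, 34354119 to 34368463). It went from 77.6, 84.5 and 129 normalised reads to 917, 621, 441 and 673, a 6.79-fold rise (log2 fold change 2.76, SE 0.28, adjusted p = 3.17e-05). Even the lowest KA library lay far above the highest control. Akr1a1, a broad aldehyde reductase and abundant per kilobase, rose less, from 5756, 6476 and 7427 to 9013, 8517, 9374 and 8089 (log2 fold change 0.42, SE 0.13, adjusted p = 0.0106). With RLE factors this call was lost too (log2 fold change 0.25, adjusted p = 0.0703).

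Aldehyde dehydrogenases of amino acid and folate metabolism moved in both directions. Aldh18a1, which makes a precursor of proline, went from 245, 222 and 203 normalised reads to 673, 512, 355 and 543 (log2 fold change 1.22, SE 0.21, adjusted p = 0.000482). Aldh4a1, which works in proline breakdown, went from 1184, 1274 and 1113 to 791, 869, 1057 and 915 (log2 fold change -0.39, SE 0.13, adjusted p = 0.0146), a call lost without control 2 (adjusted p = 0.0607). The folate enzymes of the cytosol and the mitochondria, Aldh1l1 and Aldh1l2, had log2 fold changes of 1.37 and 2.43, although Aldh1l2 had at most 40.6 normalised reads in any library. Aldh5a1, of the breakdown of GABA, had 1.20, and Aldh6a1, of valine breakdown, -0.65.

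Fatty aldehyde dehydrogenase, Aldh3a2, whose loss causes a scaling skin disease in people (Sjögren-Larsson syndrome), went from 1245, 1246 and 1237 normalised reads to 644, 834, 918 and 948. The controls were nearly equal and every KA library lay below them (log2 fold change -0.57, SE 0.14, adjusted p = 0.00397). Aldh3b3, a related enzyme, was higher, with 26.5, 21.6 and 28.1 against 59.4, 72.1, 86.7 and 72.7 (log2 fold change 1.51, SE 0.27, adjusted p = 0.000694). Aldh16a1 (0.54) was higher and Akr1e1 (-0.57) was lower.

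Conjugating enzymes and esterases outside these groups were 4 higher and 2 lower of 6 tested, 3 at least 2-fold higher and 1 at least 2-fold lower, with a median log2 fold change of 0.86. Ugt1a7c, which attaches glucuronic acid (ENSMUSG00000090124, chromosome 1, 88095062 to 88220002), went from 20.8, 14.4 and 15.2 normalised reads to 150.4, 131, 215 and 201, a 10.3-fold rise (log2 fold change 3.36, SE 0.29, adjusted p = 1.28e-05). Ugt1a1, known for conjugating bilirubin, had 133, 116 and 124 against 149, 166, 228 and 213 (log2 fold change 0.60, adjusted p = 0.0174), a call lost without control 2 (adjusted p = 0.0581). Ugt1a genes share their last exons, and 69.3% and 80.2% of the 50-base words of these genes are shared with others, so reads could not be split between them with certainty.

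Sult5a1, a sulfotransferase (ENSMUSG00000000739, chromosome 8, 123140192 to 123158315), was among the most abundant members of control epidermis, at 1448 ± 230 (SD, n = 3) normalised reads per kilobase. It went from 5483, 6225 and 7489 normalised reads to 1158, 1656, 1618 and 1924, a 4.03-fold fall (log2 fold change -2.01, SE 0.18, adjusted p = 1.28e-05). Sult4a1, a family member known from the brain, had 6.63, 1.03 and 0.802 in controls and 77.2, 57.5, 41.8 and 73.7 in KA (log2 fold change 4.44, SE 0.58, adjusted p = 0.000105). Without control 1, which held most of the control reads, this rise was 61.0-fold in place of 21.7-fold.

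Carboxylesterases hydrolyse esters and lay on both sides. Ces2g had 353, 299 and 249 normalised reads in controls and 820.0, 650.1, 518 and 614 in KA (log2 fold change 1.12, SE 0.19, adjusted p = 0.000431). Its neighbour Ces2f had 226, 186 and 150.0 against 142, 116, 89.8 and 129 (log2 fold change -0.65, SE 0.22, adjusted p = 0.0168), a call lost without control 1 (adjusted p = 0.081). Ces5a, with too few reads for the fit, had 2.84, 5.15 and 8.82 in controls and 0 in all 4 KA libraries, at least 1.78-fold lower against the floor of 3 counts per library.

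**Figure D4:**
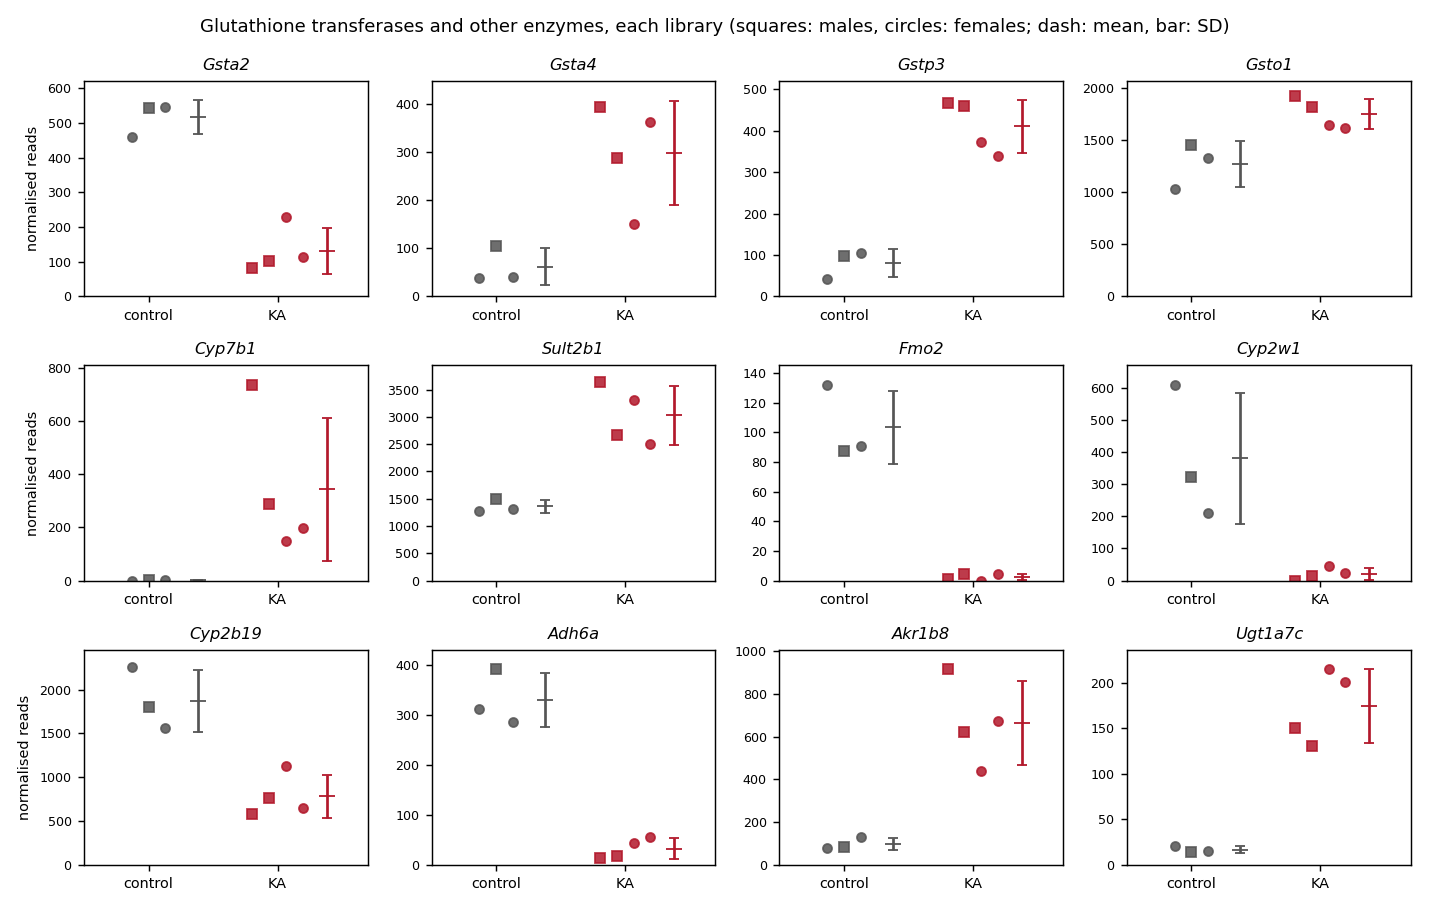
Normalised reads of 12 glutathione transferases, sterol enzymes, other P450s and reductases in each library (linear axes from 0, grey controls, red KA, squares males, circles females, dash and bar the mean and SD). KA points lie apart from all controls in every panel, below them for Gsta2, Fmo2, Cyp2w1, Cyp2b19 and Adh6a and above them for the other 7 genes.

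Some members lie beside relatives in the genome. Of the 76 members, 29 lie in 12 clusters of 1 family, where a cluster joins members at most 500 kb apart. In 11 of them at least 2 members were tested, and in the Akr1c cluster only Akr1c19 was. All tested members moved the same way in 6 of the 11, the Adh, Aldh1a and Gstt clusters, which were lower, and the Gstm, Gstp and Ugt1a clusters, which were higher. Among the 7 clusters with a tested pair, 4 had both genes on the same side. In 5 clusters (Ces2, Cyp2j, Cyp4f, Gsta and Gsto), neighbouring relatives were found on both sides. Whether position and direction go together was not tested.

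**Figure D5:**
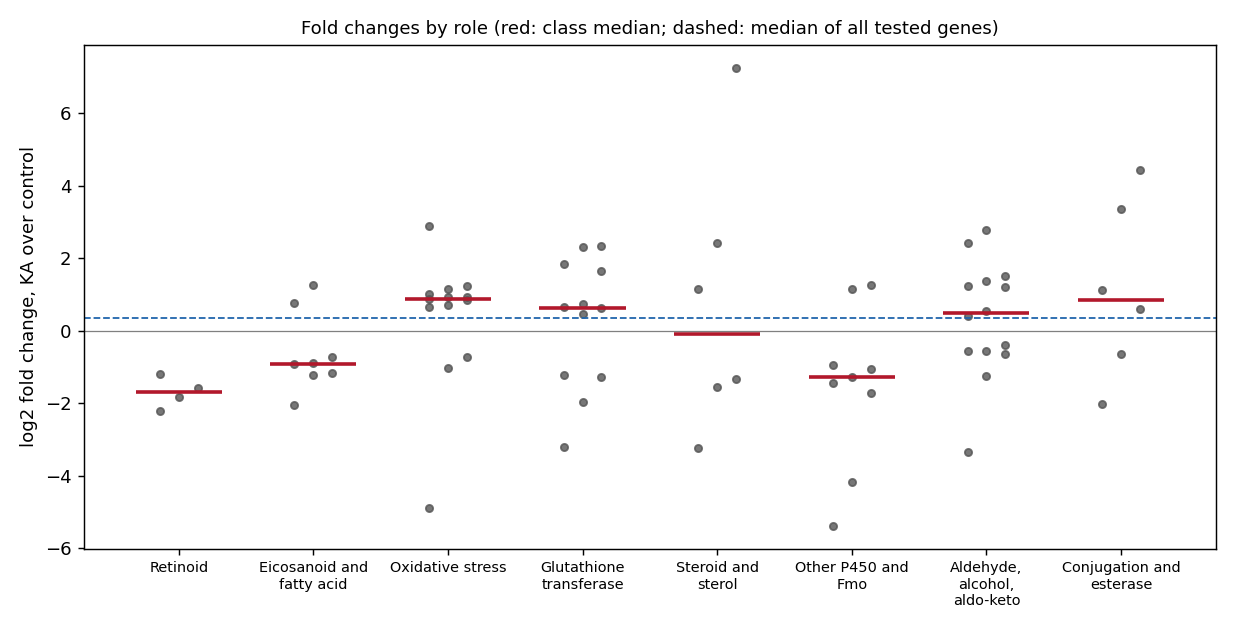
Log2 fold change, KA against control, of each tested member (points) by class of enzyme, with the class median (red line) and the median of all 6749 tested genes (dashed line, 0.36). The medians run from -1.70 for retinoid enzymes to 0.87 for oxidative stress enzymes, and the sterol class spreads from -3.24 to 7.25.

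Nuclear receptors that act on these enzymes or on their ligands were listed for 8 of 12, 4 higher and 4 lower, with a median log2 fold change of 0.20. Ppard, a fatty acid receptor of keratinocytes, went from 804, 690 and 824 normalised reads to 2602, 1773, 1900 and 2080 (log2 fold change 1.43).

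Libraries of 1 group were not equally far from the other group. KA 1 was the KA library farthest from the control mean in the called direction in 44 of 72 members (61.1%), against 58.9% of all listed genes. KA 3 was the nearest in 34 (47.2%), against 48.7%. The numbers in the sample titles fall into 2 runs, whose meaning the labels do not give. Within the lower run (controls 1 and 2, KA 1 and 2) and within the higher run (control 3, KA 3 and 4), 71 of 72 members had both KA libraries beyond the controls in the pooled direction, against 99.3% and 97.6% of all listed genes. The exceptions were Hmox1 in the lower run and Gpx4-ps2 in the higher run.

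By run, the median log2 difference was -1.93 and -1.58 for the retinoid enzymes, -1.19 and -0.53 for the eicosanoid enzymes and 0.99 and 0.55 for the oxidative stress enzymes, lower run first. Among females alone, both KA libraries lay beyond the controls in 70 of 72 members (not in Adh1 and Gpx4-ps2), against 95.7% of all listed genes. Among males alone they did in 71 (not in Hmox1), against 99.7%. Each run and each sex holds 1 or 2 controls, so no test was made within them. In KA, run and sex coincide: KA 1 and KA 2 are the males of the lower run, KA 3 and KA 4 the females of the higher. The splits by run and by sex thus use the same KA pairs and are not separate checks. Differences between male and female KA libraries cannot be told apart from run.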

How the data were processed

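RNA-seq libraries of 4 KA and 3 control epidermis samples were compared. The submitters' processing notes name fastp, STAR 2.6.1d, featureCounts 1.5.0-p3, DESeq2 1.40.2 and the build mm10, with no role or order. Strand setting and annotation are not given in the sources used here, so overlapping and antisense genes are uncertain. Per the file headers and values, the deposited table gives raw read counts per gene and normalised reads (a signal scale), which are the authors' counts divided by 1 size factor per library. Further columns, per the file headers, are log2 fold changes and their standard errors, a test score, and raw and adjusted p-values, all by the authors. The largest adjusted p-value listed is 0.04995, and the authors' adjustment ran over 19407 genes. Columns of other samples numbered 0.

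Counts as deposited were fitted with edgeR 4.0.16 in R 4.3.3 (glmQLFit and glmQLFTest, filterByExpr by group), scaled by the authors' size factors because the listed genes have no unchanged majority. Benjamini-Hochberg adjustment ran over the 6749 genes tested, with a threshold of 0.05. A second rule asked also for a 2-fold difference (1 on the log2 scale). The SE is the log2 fold change divided by the square root of F, and the common biological coefficient of variation was 0.193. The code was checked on simulated data. Class medians by KA library add 0.5 to the normalised reads. Folds against groups with at most 3 counts in each library were computed with that floor and are lower bounds.

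Members, classes and lists were chosen with earlier results of these data known. Within each class, the 3 largest non-overlapping changes and the most abundant gene, among members with a mean of at least 20 normalised reads, and any other change of at least 4-fold, were named (30 members). Other members are given to account for all 76. Identifiers were found in GENCODE M21 (GRCm38) for all 76, 70 with identical start and end. Shared sequence is the share of 50-base words of the longest transcript found in other genes. Alternatives were TMM and RLE factors from the listed genes, a mean of at least 10 counts or no filter, limma-voom (limma 3.58.1), DESeq2 1.42.0, sex, title-number run and replicate block as terms, adjustment over the authors' number of genes, and each library left out.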

Additional observations from a re-analysis of the deposited data

Results flagged for a closer look

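In 2 of 75 members the KA library farthest from the rest stood apart by more than Dixon's 95% critical value for 4 samples, which chance gives in about 1 in 20 groups. For Cyp26b1, the gap between KA 1 (97.9 normalised reads) and the next library was 0.848 of the range of the KA group, whose other values were 177, 190.1 and 191. For Cyp8b1, the gap below KA 1 (74.2) was 0.91 of the range, with 23.7, 21.9 and 18.7 in the others. Both members stayed past the threshold without KA 1.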

How the results depend on the processing

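Of the 30 named members, each under 17 alternatives, 508 of 510 pairs kept their call and direction and 0 reversed. These members were named mostly for large, non-overlapping changes, among genes already past the authors' threshold. Keeping their calls was thus largely fixed by that choice. The 2 lost calls, Gsto1 and Akr1a1, came under RLE factors. Among the other members, Cyp2j12 and Ugt1a1 lost their calls under TMM and RLE factors, Cyp2j12, Cyp4f37 and Hmox1 under adjustment over the authors' number of genes, and Cyp4f37 and Ugt1a1 under the replicate block. The log2 fold change of Cyp2w1 was -5.20 with limma-voom, and that of Gstt1 was -4.58 under the block. Scaling by factors computed from the listed genes lowered the median log2 fold change of all listed genes from 0.36 to 0.19 (RLE) and 0.22 (TMM), and that of the members from 0.44 to 0.27 and 0.31. Under RLE factors the oxidative stress median was 0.70, with 2 members at least 2-fold higher. With sex as a covariate 1 oxidative stress enzyme was at least 2-fold lower. The number of retinoid and eicosanoid enzymes called higher was 1 under RLE factors, TMM factors and adjustment over the authors' number of genes. With each library left out in turn it ranged from 1 to 2, as did their number at least 2-fold higher (1 to 2) and the oxidative stress enzymes at least 2-fold lower (1 to 2), and the members' median ranged from 0.33 to 0.51.

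The labels do not say whether the replicate numbers pair the libraries. Deviations of same-numbered libraries from their group means correlated at -0.20, 0.15 and -0.09, which cannot decide it with so few libraries. With a replicate block, 36 members were called higher and 34 lower, in place of 37 and 35, and 3212 and 2894 of all listed genes, in place of 3554 and 3192. Under the block, KA 4 has no control of its number. The sample titles also carry a letter, whose meaning the labels do not give. It is A for control 1 and KA 1, B for control 2 and KA 2, and C for control 3, KA 3 and KA 4. A block by this letter was not fitted. Control 1 correlated most with KA 4 (0.20), not with KA 1. The total depth of each library is unknown, because the table holds the listed genes only, and genes with few reads such as Cyp7b1, Cyp8b1, Aldh1l2 and Gstm7 have wide errors.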
